A study of Rattus norvegicus with 14 samples.

Results

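This comparison set rat aortic smooth muscle cells that had received the bromodomain inhibitor JQ1 and then platelet-derived growth factor (PDGF) for 24 h against the same cells before any stimulation, and asked which genes stood back at the starting level after 24 h and which stood below it. Its members are 5 of the 14 RNA-seq libraries of the study, 2 unstimulated and 3 with JQ1 and PDGF, taken by their column names in the deposited expression tables. Genes were measured in 17312 rows, and the 10133 that reached 1 normalised FPKM in 2 or more of the 14 libraries were tested. FPKM scales fragments to transcript length and library size, so levels are given per length. The cells were RASMC, cultured rat aortic smooth muscle cells from a commercial supplier, and every library came from cells kept without serum for 24 h before treatment. The unstimulated cells (0 h) carry no PDGF or JQ1 treatment in their labels. The JQ1 cells were exposed to 500 nM JQ1 for 3 h and then to 925 ng/ml PDGF for 24 h, and 3 further libraries with the same PDGF dose for 24 h and no JQ1 served to say which genes PDGF had moved. Replicates carry the letters A and B at 0 h, A, B and D with PDGF alone, and E, F and H with JQ1 and PDGF. The labels do not say whether letters are separate cultures, so p-values measure the spread between these libraries, which may be technical. JQ1, PDGF, 24 h more in culture and the set of letters differ together between the 2 compared groups and cannot be told apart in this comparison. None of the 14 libraries is labelled with JQ1 and without PDGF, or as a 24 h time point without PDGF. So PDGF and 24 h more in culture cannot be told apart in PDGF alone against 0 h. JQ1 and the set of letters cannot be told apart against PDGF alone. Raised or lowered by PDGF below names a difference between groups. JQ1 came before PDGF and in other libraries, so returned, held and passed name positions and no course in time.

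PDGF acts through receptor tyrosine kinases on smooth muscle cells of the artery wall and is known for driving them from a contractile state, rich in actin and myosin filaments and governed by serum response factor and its partner myocardin, toward a state of migration, proliferation and matrix production. JQ1 occupies the acetyl-lysine pockets of the BET proteins, readers of acetylated histones that recruit the elongation kinase P-TEFb to promoters and enhancers. Loss of BET binding lowers many inducible and cell identity genes, while Hexim1, an inhibitor of P-TEFb, is known to rise on BET inhibitors and is used as a sign of drug exposure.

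The libraries held values above 0 in 10473 and 11152 genes at 0 h and in 10603 to 11064 genes with JQ1 and PDGF. FPKM files carry no read totals, so the depth is unknown, and the number of genes above 0 stands in its place. Spearman's correlation over tested genes was 0.974 between the unstimulated libraries, 0.986 to 0.988 among the JQ1 libraries and 0.873 to 0.878 across the groups, as a description over genes that share a library. The authors' normalisation moved values above 32 FPKM by 0.0839 (log2) in JQ1 library 0 and by -0.23 and -0.163 in JQ1 libraries 1 and 2, where the numbers are those of the columns. In PDGF 24 h libraries 0, 1 and 2 it moved them by 0.438, 0.369 and 0.442. There the median of the synthetic spike-in RNA, against its mean over libraries, was -0.357, -0.332 and -0.422 (log2) before normalisation. After normalisation it was 0.0902, 0.0394 and 0.0192. Whether the normalisation followed the spike-in RNA was not tested. In the normalised table a gene listed at 0 in the unnormalised table holds a small value near 0.1. The unnormalised table, divided by each library's median ratio, served as the second scale and is called the median-centred scale. Over all tested genes the median log2 difference of JQ1 with PDGF from 0 h was -0.07 on the normalised and 0.01 on the median-centred scale. For PDGF alone against 0 h it was 0.41 and 0, and for JQ1 with PDGF against PDGF alone -0.48 and 0, so the 2 scales place the PDGF libraries differently and the 2 groups compared here nearly alike.

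With JQ1 and PDGF, 1785 genes (17.6% of those tested) were higher and 2368 (23.4%) were lower than at 0 h at a limma adjusted p under 0.05, fitted on log2(normalised FPKM + 1) over all 14 libraries. Differences below are on that log2 scale, ± the standard error of the fit, and levels are normalised FPKM by library, with n = 2 at 0 h and n = 3 in both 24 h groups. On the median-centred scale the counts were 2504 higher (25.1%) and 2474 lower (24.8%). Without unstimulated library 0, 1073 genes were higher, and with each other library of the 3 groups left out in turn the count of higher genes reached at most 1764. The library ranges of the compared groups did not overlap for 2913 genes higher with JQ1 (28.7%) and 3673 genes lower (36.2%). The lower side held the larger differences. A drop of at least 1 on the log2 scale was called for 1413 genes against 600 genes with a rise of that size, and at a size of at least 3 the counts were 158 and 28. Of the genes called lower, 367 lay under 1 FPKM in all 3 JQ1 libraries and passed the filter through other groups, so their differences depend on the pseudocount of 1. Of the genes called higher, 75 lay under 1 FPKM in both unstimulated libraries, and 396 tested genes lay under 1 FPKM in all 5.

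The contractile genes were far below the starting level. Of 26 tested members of the contractile list, 22 fell and none rose (1 was higher at an unadjusted limma p under 0.05), with a median log2 difference of -2.04 against -0.07 over all genes tested. Over all tested genes the shares were 23.4% lower and 17.6% higher. PDGF alone had lowered 15 of them and raised 3 at the same threshold, which it reached for 37.7% of all tested genes upward and 4.85% downward on the normalised scale. Acta2, smooth muscle alpha-actin, had a normalised FPKM of 4814 and 5688 at 0 h, 967, 1019.5 and 849.5 with PDGF and 109.9, 69.3 and 84.6 with JQ1 and PDGF. All JQ1 values of Acta2 lay below all PDGF values, and these below all values at 0 h. Its difference from 0 h was -5.90 ± 0.18 (log2 ± SE, limma adjusted p = 1.4e-12), a mean 59.7-fold lower. Tagln, the actin-binding protein transgelin, measured 3598 and 4491 at 0 h, 797, 829 and 771 with PDGF and 339, 230.5 and 272 with JQ1 and PDGF. Cnn1, calponin, measured 282 and 358 at 0 h, 45.8, 47.1 and 42.4 with PDGF and 9.30, 5.22 and 5.52 with JQ1 and PDGF. In both genes the 3 groups were stacked in the same order without overlap, with differences from 0 h of -3.85 ± 0.17 and -5.42 ± 0.19.

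Lmod1, an actin filament nucleator of smooth muscle, fell by 4.92 and Myl9, a myosin regulatory light chain, by 4.66. Smooth muscle myosin heavy chain Myh11 was a low-level gene in these cells, with 5.12 and 5.61 at 0 h and 0.461, 0.203 and 0.486 with JQ1 and PDGF, and fell by 2.21. Some members fell with JQ1 although PDGF alone had not lowered them at the threshold. Ldb3, a PDZ and LIM protein that binds alpha-actinin, measured 6.06 and 7.78 at 0 h, 4.74, 6.44 and 4.05 with PDGF and 0.415, 0.139 and 0.201 with JQ1. Its unstimulated and PDGF values overlapped, while its JQ1 values lay far below both. Itga8, an integrin subunit of smooth muscle, had means of 51.6 ± 2.79 (SD) at 0 h, 95.96 ± 9.31 (SD) with PDGF and 9.56 ± 1.20 (SD) with JQ1. Its fall from the start was 2.32. The 4 members that did not pass the test were Des at -0.19 ± 0.35, Fhl2 at 0.12 ± 0.17, Itga7 at 0.24 ± 0.16 and Pdlim7 at 0.32 ± 0.14. Of these, Fhl2 and Itga7 had been raised by PDGF and met the rule for a return to the start. On the median-centred scale Itga7 and Pdlim7 passed the test upward, at 0.30 and 0.36.

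Myocd, the coactivator myocardin, fell as well. It measured 5.52 and 5.16 at 0 h, 2.30, 1.41 and 1.03 with PDGF and 0.118, 0.126 and 0.131 with JQ1 and PDGF, a fall of 2.49 (limma adjusted p = 6.4e-06). The level with JQ1 lies at the bottom of the normalised scale, and the unnormalised FPKM of the 3 JQ1 libraries was 0.0170, 0.0951 and 0.0739. Among 22 tested regulators of smooth muscle genes, 4 fell and 5 rose, of which 3 rose without unstimulated library 0 and 2 without library 1. Of all tested genes 23.4% fell and 17.6% rose, and the list median of -0.08 was near the -0.07 of all genes. The receptor Notch3 fell by 2.58 and the transcription factor Tbx18 by 1.38. Srf itself was at -0.40 ± 0.16 and did not pass the test (limma adjusted p = 0.0517), although it did at -0.33 on the median-centred scale, with a pseudocount of 0.1, with no filter on low values and with a filter of 5 FPKM. Neither did Mef2a at 0.31 ± 0.19 or Yap1 at -0.30 ± 0.16 pass on the normalised scale. Klf4, a zinc finger factor known to repress contractile genes, rose from 9.53 and 7.83 at 0 h to 35.5, 31.3 and 33.1 with JQ1, by 1.83 ± 0.17, and PDGF alone gave 15.2, 11.3 and 10.2.

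Serum response factor binds the CArG box, an element shared by contractile and immediate early genes, and these 2 groups stood on opposite sides of the starting level. The RefSeq windows of 250 bases before to 50 after the annotated start (build GRCr8) were searched on both strands for the exact CArG consensus, whose pattern reads the same on either strand. Of 20 contractile members with a window, 3 held it (15%). Of 19 immediate early members with a window, 5 held it (26.3%), and of all 27457 windows 451 did (1.64%). The 250 bases before the start are shown for 2 contractile genes that fell and 2 immediate early genes that rose, and the third contractile holder of a box, Fhl2, was at 0.12 ± 0.17 and not called. The CArG box is in capitals and the gene's strand is read 5′ to 3′. Fhl1, at chrX:139638246-139638495 on the plus strand, fell by 1.62. Ldb3, at chr16:9924680-9924929 on the minus strand, fell by 2.66. Dusp5, at chr1:262543524-262543773 on the plus strand, holds 2 adjoining boxes and rose by 2.85 ± 0.24. Zfp36, at chr1:92799109-92799358 on the minus strand, rose by 1.96 ± 0.18.
Fhl1: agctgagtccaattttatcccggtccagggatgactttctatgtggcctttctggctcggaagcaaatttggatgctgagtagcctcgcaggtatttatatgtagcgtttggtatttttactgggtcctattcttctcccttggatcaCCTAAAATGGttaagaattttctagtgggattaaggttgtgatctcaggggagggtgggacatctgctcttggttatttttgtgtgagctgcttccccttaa
Ldb3: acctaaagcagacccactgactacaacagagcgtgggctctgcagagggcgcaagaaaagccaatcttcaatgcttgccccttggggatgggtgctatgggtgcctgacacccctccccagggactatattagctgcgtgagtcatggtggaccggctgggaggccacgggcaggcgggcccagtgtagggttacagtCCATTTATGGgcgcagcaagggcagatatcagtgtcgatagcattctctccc
Dusp5: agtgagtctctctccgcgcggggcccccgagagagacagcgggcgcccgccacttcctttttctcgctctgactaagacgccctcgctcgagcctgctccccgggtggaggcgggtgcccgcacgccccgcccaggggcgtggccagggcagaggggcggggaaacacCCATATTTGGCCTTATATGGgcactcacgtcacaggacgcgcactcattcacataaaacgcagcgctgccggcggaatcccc
Zfp36: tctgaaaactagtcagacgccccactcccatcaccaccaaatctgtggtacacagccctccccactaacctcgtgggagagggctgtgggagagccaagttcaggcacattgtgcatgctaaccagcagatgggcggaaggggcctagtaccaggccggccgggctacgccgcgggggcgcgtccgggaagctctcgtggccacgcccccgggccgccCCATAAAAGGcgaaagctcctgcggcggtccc
The first base of the box lies 102 bases before the start in Fhl1, 52 in Ldb3, 82 and 72 in Dusp5 and 32 in Zfp36. So a box of the same kind stands before genes that fell, a gene that did not pass the test and genes that rose. A match describes letters only. Acta2 and Cnn1 were not among the 3 contractile holders, and the lack of a match says nothing about the factor.

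**Figure D1:**
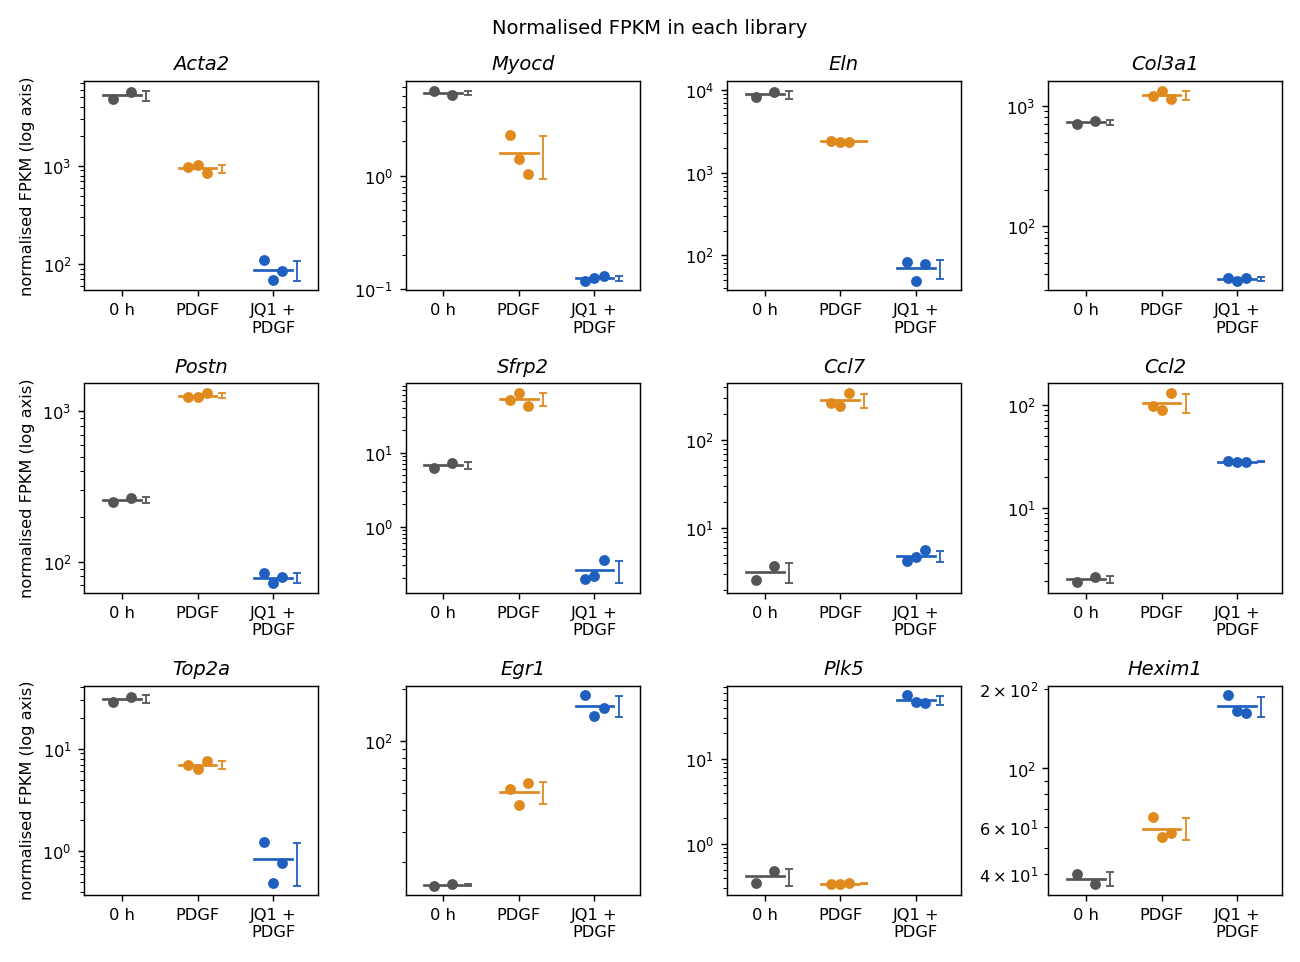
Normalised FPKM (log axis, own range per panel) of 12 genes in the 2 unstimulated libraries, the 3 PDGF 24 h libraries and the 3 JQ1 plus PDGF 24 h libraries. Points are libraries, bars are means and the brackets beside them are ± 1 SD (a lower arm that would pass 0 is shortened). Acta2, Myocd, Eln and Top2a are lower with PDGF than at 0 h and lower still with JQ1 and PDGF. Col3a1, Postn and Sfrp2 are above the start with PDGF alone and below it with JQ1. With JQ1, Ccl7 lies near the start, Ccl2 between start and PDGF level, and Egr1, Plk5 and Hexim1 above the start.

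Most matrix genes stood below the start and some above it. Of 27 tested matrix genes, 19 fell and 7 rose, with a median of -1.08, while PDGF alone had raised 16 and lowered 4. Over all tested genes 23.4% fell and 17.6% rose, and PDGF alone raised 37.7% and lowered 4.85% on the normalised scale. On the median-centred scale PDGF alone raised 1478 of all tested genes and lowered 1341. Without unstimulated library 0, 4 members rose, and the calls of Fn1, Has2 and Col8a1 were lost. Eln, which encodes the elastin precursor, had the lowest difference of the matrix list. It measured 8144 and 9576 at 0 h, 2433, 2380.4 and 2384 with PDGF and 83.3, 49.1 and 77.7 with JQ1 and PDGF. The difference was -6.99 ± 0.20 (limma adjusted p = 1.2e-12), a mean 126-fold lower. Lox, the oxidase that crosslinks elastin and collagen, went from 271 and 349 at 0 h to 3.63, 4.31 and 4.64 with JQ1, with 147, 151 and 153 under PDGF alone. Fbln5, an elastic fibre assembly protein, fell by 4.02. Col3a1, a fibrillar collagen chain, measured 703 and 750.4 at 0 h, 1194, 1337 and 1131 with PDGF and 37.6, 35.3 and 37.3 with JQ1. All 3 JQ1 values of Col3a1 lay below both starting values, by -4.27 ± 0.14 in the fit.

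Lum, the collagen-binding proteoglycan lumican, was level under PDGF alone (110 and 116 at 0 h and 106, 122 and 107 with PDGF) and stood at 4.15, 4.65 and 3.20 with JQ1. The 7 members above the start were Vcan, Has2, Fn1, Loxl2, Col18a1, Col1a1 and Col8a1. Vcan, the proteoglycan versican, measured 9.73 and 10.9 at 0 h, 78.7, 74.98 and 80.9 with PDGF and 56.5, 39.3 and 44.7 with JQ1. Col1a1, the main chain of type I collagen, measured 1752 and 2079 at 0 h, 6205, 5818 and 5804 with PDGF and 3782, 2981 and 3278 with JQ1, so it stayed 0.80 ± 0.18 above the start while Col3a1 stood below it. Fn1, fibronectin, rose by 1.004 ± 0.23 with JQ1 and was at 0.35 under PDGF alone (limma adjusted p = 0.228). Has2, a hyaluronan synthase, was listed at 0 in both unnormalised unstimulated libraries and reached 1.49, 1.16 and 1.02 with JQ1 on the normalised scale, and its call was also lost without unstimulated library 1. The Col8a1 call was also lost without JQ1 library 0 or 2.

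Proteases of the matrix and their inhibitors split evenly, with 7 of 17 higher and 7 lower. Among all tested genes 17.6% were higher and 23.4% lower. Plat, tissue plasminogen activator, went from 36.3 and 28.7 at 0 h to 291, 265 and 307 with PDGF and 964, 784 and 808 with JQ1, a rise of 4.67 ± 0.13 and a mean 26.2-fold higher. The lysosomal protease Ctsl rose by 2.74 ± 0.14 and the inhibitor Timp1 by 2.23 ± 0.14. Mmp2, a gelatinase, fell by 3.32, from 195 and 233 to 22.1, 19.2 and 20.05, and the inhibitor Timp3 by 2.82. Mmp14, the membrane protease that activates Mmp2, fell by 1.12 and was 1.06 above the start with PDGF alone.

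With PDGF alone 1176 genes (11.6% of those tested) were called higher than at 0 h by at least 1 on the log2 scale. These are the raised genes. Each was placed by where it stood with JQ1. A gene passed below when it was called lower than at 0 h. It returned when it was called down against PDGF alone, was not called against 0 h, and had a 95% interval of its difference from 0 h wholly between -1 and 1. It held when it was still called above 0 h. By these rules 115 genes passed below the start (9.78% of the 1176), 362 returned (30.8%), 511 held above it (43.5%) and 188 were undetermined. Of the 188, 136 were called down against PDGF alone and not called against 0 h, but their interval reached past -1 or 1. The returned count thus depends on the width of the intervals. Of the 511 held genes, 208 were called down against PDGF alone, 240 were not called against it, and 63 were called further up. A call down against PDGF alone was made for 48.5% of all tested genes and a call up for 4.61%. On the median-centred scale PDGF raised 454 genes by at least 1, of which 36 passed below, 121 returned and 259 held. Of the genes placed on that scale, 31 of the 36, 107 of the 121 and 225 of the 259 had the same place on the normalised scale. The classes are set by the 3 comparisons, which share libraries, so their sizes describe and test nothing further. Of the raised genes, 85 lay under 1 FPKM in all 5 compared libraries and were tested only through other groups. Of these 85, 60 counted as returned and 1 as passed below. With all 5 libraries under 1 FPKM, a difference from 0 h cannot exceed 1 in size on the log2(FPKM + 1) scale. So 60 of the 362 returns show that the PDGF level was not reached, and say little on closeness to the start. The returned count was 260 with a pseudocount of 0.1 and 289 with a filter of 5 FPKM. Just inside the band of return lay Fam126a and Cyp27a1, whose intervals reached 0.999, and just outside it Dhrs1 and Pwwp2b, at -1.001 and 1.003.

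**Figure D2:**
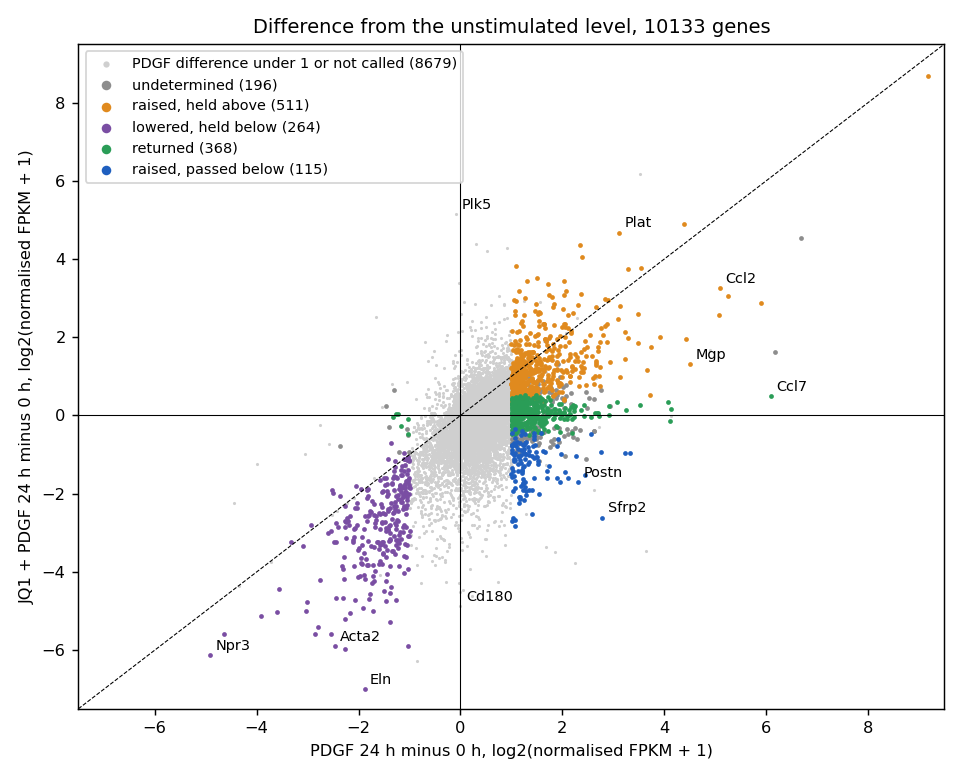
Difference from 0 h with PDGF alone (horizontal) against the difference from 0 h with JQ1 and PDGF (vertical), log2(normalised FPKM + 1), for the 10133 tested genes, each a point coloured by its place. The 2 axes share the unstimulated libraries, the dashed line marks equal differences, and raised genes spread on the vertical axis from -2.82 (Emilin1) to above the line, while 264 of the 278 lowered genes were still called below the start.

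Genes that passed below the start included secreted factors, matrix proteins and receptors. Postn, the matricellular protein periostin, measured 249 and 266 at 0 h, 1246, 1249.6 and 1324 with PDGF and 84.01, 71.8 and 78.9 with JQ1. Its groups did not overlap, and the level with JQ1 was 3.29-fold under the start (-1.71 ± 0.13, limma adjusted p = 3.6e-08). Sfrp2, a secreted Wnt modulator, measured 6.17 and 7.26 at 0 h, 51.6, 63.6 and 42.5 with PDGF and 0.197, 0.219 and 0.356 with JQ1, a fall of 2.62. Fibin, a secreted protein gene, stood at 9.55 and 8.26 at 0 h, 102, 96.1 and 95.3 with PDGF and 5.45, 3.53 and 3.58 with JQ1. Cp, the copper protein ceruloplasmin, was 0.96 below the start with JQ1 and 3.22 above it with PDGF alone. Smoc2, a calcium-binding matricellular protein, was 1.53 below it with JQ1 and 2.44 above it with PDGF alone. Pth1r, the parathyroid hormone receptor, fell by 1.60 and Enpep, the aminopeptidase that cleaves angiotensin II, by 1.04. Among list members in this class, the matrix proteins Emilin1, Col6a2, Acan and Tnc fell by 2.82, 1.85, 0.79 and 0.60. The cytokine Il6 fell by 1.08, from 2.53 and 1.34 at 0 h to 0.616, 0.169 and 0.335, with 9.14, 6.21 and 5.42 under PDGF alone.

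The size of this class depended on the unstimulated libraries, and it held 58 genes without library 0 and 84 without library 1 in place of 115. Hspb8, a small heat shock protein, was at -0.93 ± 0.31 (limma adjusted p = 0.0266) and lost its call when either unstimulated library or JQ1 library 0 or 1 was left out, with limma adjusted p up to 0.118. Tnc lost it without unstimulated library 1 or JQ1 library 1, with limma adjusted p up to 0.157. Kazald1, a secreted protein gene at -1.45 ± 0.44, and Gbp2, an interferon-induced GTPase at -0.47 ± 0.17, lost it without unstimulated library 0, and Kazald1 also without JQ1 library 0 and Gbp2 also without JQ1 library 1. Kazald1 measured 5.85 and 1.77 at 0 h, with library 0 the higher, and 0.353, 0.413 and 1.12 with JQ1. Il6 lost its call without unstimulated library 0, JQ1 library 1 or JQ1 library 2 (limma adjusted p up to 0.229), and Acan without unstimulated library 1 (limma adjusted p = 0.0854).

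Genes that returned included chemokine, channel and signalling genes. Ccl7, a chemokine that attracts monocytes, had the largest PDGF difference among returned genes, 6.09. It measured 2.59 and 3.73 at 0 h, 261, 246 and 342 with PDGF and 4.20, 4.70 and 5.57 with JQ1. The JQ1 values lay just above both starting values, at 0.49 ± 0.20 (limma adjusted p = 0.0568), and on the median-centred scale, at 0.59, the gene passed the test and counted as held above. It also passed the test with a pseudocount of 0.1 and without unstimulated library 1. Ano1, a calcium-activated chloride channel, measured 5.24 and 5.89 at 0 h, 124, 98.7 and 123 with PDGF and 7.03, 5.81 and 6.31 with JQ1. Its unstimulated and JQ1 ranges overlapped. Kcnn4, the calcium-activated potassium channel of proliferating smooth muscle cells, measured 7.91 and 7.23 at 0 h, 158, 126 and 147 with PDGF and 8.86, 10.5 and 10.1 with JQ1, and Trpv2, a cation channel, 5.06 and 3.82 at 0 h, 46.3, 35.00 and 39.2 with PDGF and 5.94, 3.88 and 3.83 with JQ1. Il1rn, the interleukin-1 receptor antagonist, rose under PDGF from 0.870 and 0.958 to 32.7, 31.2 and 31.9 and stood at 1.10, 0.325 and 0.874 with JQ1.

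Prrx1, a homeobox factor of mesenchymal cells, rose from 19.6 and 26.8 to 161, 127 and 157 under PDGF and measured 23.3, 24.3 and 23.8 with JQ1, all inside the starting range. Ccnd1, the D-type cyclin that opens G1, measured 83.5 and 91.02 at 0 h, 328, 305 and 375 with PDGF and 107, 91.8 and 92.9 with JQ1. On the median-centred scale its difference from 0 h, 0.21, passed the test, so the return holds on the normalised scale alone, and the same was true of Itga7 and of the zinc finger gene Zfp347. The regulator of G protein signalling Rgs16 was at 0.28 ± 0.27, the aldo-keto reductase Akr1c13 at 0.13 ± 0.29, the cell cycle inhibitor Cdkn2a at 0.24 ± 0.21 and the cartilage factor Sox9 at 0.35 ± 0.16 from the start, the last past the test on the median-centred scale, at 0.42, and without JQ1 library 1. Slc14a1, a urea transporter, lay at the floor of the scale in all 5 compared libraries and reached 10.9, 4.97 and 4.63 with PDGF. It did not reach that level with JQ1, and a place below the start could not be seen at the floor.

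Genes that held above the start included several of those PDGF had raised most. Ankh, which exports pyrophosphate from the cell, measured 6.91 and 6.86 at 0 h, 336, 244 and 329.9 with PDGF and 72.2, 61.5 and 59.9 with JQ1, so JQ1 values lay between the other groups, 3.05 ± 0.18 above the start. Ccl2, another monocyte chemokine, measured 1.94 and 2.19 at 0 h, 96.4, 89.1 and 130.1 with PDGF and 28.5, 28.04 and 28.2 with JQ1, and held at 3.26 ± 0.20 where Ccl7 was at 0.49 ± 0.20. Mgp, the matrix Gla protein known to inhibit calcification, measured 676 and 641 at 0 h, 16265, 14115 and 14580 with PDGF and 1754, 1713 and 1472 with JQ1, and held 1.32 ± 0.15 above the start. Spp1, osteopontin, was among the most abundant of these genes, with 5522 and 6852 at 0 h, 44117, 39606 and 40209 with PDGF and 24551, 21329 and 22006 with JQ1. Of 15 tested calcification and osteochondrogenic genes, 7 were above and 4 below the start. Among all tested genes 17.6% were above and 23.4% below, so the part of this list below was near that of all genes. The 4 below were Fgf18, the decoy receptor Tnfrsf11b, the growth factor Bmp4 and the factor Runx1, at -5.59 ± 0.57, -2.97 ± 0.13, -2.27 ± 0.17 and -0.51 ± 0.20. The Runx1 call was lost without either unstimulated library, without any 1 PDGF library and without JQ1 library 1, and also with no filter on low values, with no mean trend and with the compared groups fitted alone. Runx2, the bone cell factor, held at 1.69 ± 0.34.

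PDGF alone lowered 278 genes by at least 1 (2.74% of those tested), and 264 of them (95.0%) were still below the start with JQ1. Against PDGF alone, 186 of the 264 were called further down, 75 were not called and 3 were called back up. None passed above the start on the normalised scale at a limma adjusted p under 0.05, 1 was higher at an unadjusted p under 0.05, and 5 did on the median-centred scale. Returned genes numbered 6, and all are named here. Hbegf, a membrane-bound ligand of the epidermal growth factor receptor, measured 53.5 and 55.99 at 0 h, 21.3, 20.4 and 25.4 with PDGF and 65.3, 50.9 and 53.2 with JQ1. Gadd45b, a stress response gene, measured 97.5 and 115 at 0 h, 45.95, 44.5 and 34.97 with PDGF and 119, 98.3 and 94.3 with JQ1. In both genes the JQ1 range reached over the starting range and the PDGF values lay below them all. The Notch ligand Jag1 was at -0.27 ± 0.15, the heparan sulfate sulfotransferase Hs6st1 at -0.09 ± 0.18, Sapcd2 at -0.46 ± 0.21 and the linker histone Hist1h1d at 0.05 ± 0.40 from the start. Hist1h1d was not among the genes PDGF moved on the median-centred scale, and 21 genes returned there of 489 lowered. Sapcd2 was called lower than at 0 h when JQ1 library 0 was left out.

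Besides Eln, Acta2 and Lox, the deepest of the lowered genes included receptors and secreted signals. Npr3, the clearance receptor of natriuretic peptides, measured 158 and 186 at 0 h, 5.25, 5.17 and 3.88 with PDGF and 1.76, 1.51 and 1.15 with JQ1. Most of its drop was present under PDGF alone (-4.91) and the full difference was -6.13 ± 0.17. Cxcl12, a chemokine that holds Cxcr4-bearing cells in place, measured 1098 and 1261 at 0 h, 229.7, 307 and 209 with PDGF and 22.2, 15.2 and 16.9 with JQ1, and its scavenger receptor Ackr3 83.8 and 101 at 0 h, 16.9, 24.3 and 14.7 with PDGF and 1.35, 1.56 and 1.67 with JQ1. Rgs4, an inhibitor of G protein signalling, fell by 5.60 and the growth factor Fgf18 by 5.59. Wisp2, a CCN family matricellular protein outside this class, was lowered by less than 1 by PDGF (-0.86) and fell by 6.28 with JQ1, from 168 and 196 to 1.18, 1.30 and 1.59. Lims2, a focal adhesion protein, the troponin Tnnc1, the collagen prolyl hydroxylase subunit P4ha3 and the myosin Myh1 fell by 5.58, 5.13, 5.06 and 5.02. Ns5atp9 fell by 5.29, with unequal JQ1 values of 5.41, 0.0751 and 1.95.

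A larger number of genes stood off the start with JQ1 although they had stayed near it with PDGF alone. By rule these were called in the same direction against 0 h and against PDGF alone, with a 95% interval of the PDGF difference inside -1 to 1, which admits small called PDGF differences. They numbered 1308 downward and 239 upward on the normalised scale and 1153 and 1464 on the median-centred scale, with 783 and 221 genes shared, so the upward count belongs to the scale. PDGF alone had a called difference in 226 of the 1308 and 59 of the 239. The counts were 815 downward and 152 upward without unstimulated library 0 and 736 and 148 without unstimulated library 1. Cd180, a Toll-like receptor relative, measured 43.1 and 53.6 at 0 h, 48.5, 49.1 and 46.5 with PDGF and 0.553, 0.638 and 0.804 with JQ1, -4.88 ± 0.17 from the start. Mrvi1, a substrate of the cGMP-dependent kinase in smooth muscle, measured 31.2 and 35.6 at 0 h, 41.8, 38.2 and 38.2 with PDGF and 0.380, 0.329 and 0.513 with JQ1. Pdgfrl, a PDGF receptor-like gene, measured 32.9 and 32.4 at 0 h, 36.3, 29.3 and 36.5 with PDGF and 0.583, 0.481 and 0.498 with JQ1. In these 3 genes the JQ1 values were under 1 FPKM in every library. Car9, a carbonic anhydrase, fell by 4.26, Ccdc80 by 3.74, the protease Mmp23 by 3.91, C1qtnf5 by 4.27, Map3k7cl by 3.63 and the adhesion adaptor Fblim1 by 3.71. Pdgfrb, the main PDGF receptor of these cells, belongs to this group. It measured 324 and 383 at 0 h, 549.6, 524 and 534 with PDGF and 161, 119 and 132 with JQ1, a fall of 1.36.

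Upward in the same class, Plk5, a polo-like kinase relative, went from 0.349 and 0.484 at 0 h and 0.334, 0.341 and 0.343 with PDGF to 55.8, 46.8 and 45.1 with JQ1, 5.14 ± 0.36 above the start. Arrdc2, an arrestin-domain gene, measured 4.79 and 4.56 at 0 h, 7.56, 6.43 and 4.44 with PDGF and 143, 108 and 104 with JQ1. Atf3, a stress-induced transcription factor, measured 0.739 and 0.887 at 0 h, 0.965, 0.492 and 0.921 with PDGF and 19.6, 15.6 and 18.8 with JQ1. All 3 genes had JQ1 values above every unstimulated and PDGF value. Atp1b2, a sodium pump subunit, Jund, an AP-1 subunit, Klf16, Mbd3, Cnnm4 and Kctd11 rose by 2.90 ± 0.25, 2.82 ± 0.14, 2.41 ± 0.17, 2.36 ± 0.14, 2.27 ± 0.29 and 2.23 ± 0.20. Hspa1a, a heat shock protein with a near-identical copy, rose by 2.40 ± 0.24 and is uncertain, since short reads can be shared between copies.

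Most other genes with the highest differences were also higher with PDGF alone than at 0 h. Hmga1, a chromatin protein that binds AT-rich DNA, measured 74.7 and 70.7 at 0 h, 1684, 1374 and 1603 with PDGF and 2470.4, 2030 and 2145 with JQ1. Sat1, the enzyme that acetylates polyamines, measured 163 and 165 at 0 h, 834, 773 and 923 with PDGF and 3781, 3201 and 3278 with JQ1. Pip5k1c, a lipid kinase, measured 16.6 and 15.6 at 0 h, 31.96, 30.6 and 31.3 with PDGF and 398, 282 and 329 with JQ1, so most of its rise of 4.29 ± 0.17 came with JQ1. Ifi27l2b, Sfrp4 and Flrt2 rose by 4.06 ± 0.39, 3.77 ± 0.35 and 3.45 ± 0.28. Serpinb2, a plasminogen activator inhibitor, was not called under PDGF alone (0.51) and rose by 4.21 ± 0.26 with JQ1. Hs3st1, a heparan sulfate sulfotransferase, was listed at 0 in both unnormalised unstimulated libraries and measured 19.7, 14.3 and 9.14 with JQ1. Rpl37 was likewise listed at 0 at 0 h and at 512, 421 and 412 with JQ1, and Ftl1, ferritin light chain, rose by 3.51 ± 0.51. Ribosomal protein and ferritin genes have many near-identical copies, so Rpl37 and Ftl1 are uncertain.

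Genes of cell division stood below the serum-starved start. All 25 tested genes of the G2/M and mitosis list fell, with a median of -3.34, and 24 of 28 genes of G1/S and replication fell, with a median of -1.64. None of these 53 rose, also at an unadjusted limma p under 0.05 (0 genes). With PDGF alone at 24 h, 23 of the 25 and 17 of the 28 were called lower than at 0 h. Over all tested genes 23.4% fell with JQ1 and PDGF, and 4.85% fell with PDGF alone. Top2a, the topoisomerase of dividing cells, measured 28.5 and 32.1 at 0 h, 6.94, 6.40 and 7.56 with PDGF and 1.24, 0.496 and 0.775 with JQ1. Plk1, a mitotic kinase, measured 32.2 and 26.99 at 0 h, 9.77, 7.60 and 7.24 with PDGF and 0.414, 0.565 and 0.717 with JQ1. Ube2c, which feeds the anaphase-promoting complex, fell by 4.48, the cyclin Ccna2 by 4.19, the proliferation antigen Mki67 by 2.80 and the kinase Cdk1 by 3.80. In the replication list, Rrm2, a subunit of ribonucleotide reductase, went from 57.1 and 58.2 at 0 h to 19.02, 15.4 and 16.3 with PDGF and 0.962, 0.116 and 1.85 with JQ1, and Tk1, thymidine kinase, fell by 4.39. Pcna, the sliding clamp, was at -0.05 ± 0.12 and did not pass the test, with E2f1 at -0.31 ± 0.26 and Gins2 at -0.001 ± 0.29. A change in the share of dividing cells and a change per cell cannot be told apart in bulk libraries.

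The D cyclins, their kinases and the inhibitors did not move as 1 group. Of 11 tested, 3 rose, 2 fell and 6 did not pass the test, where 17.6% of all tested genes rose and 23.4% fell. Cdkn2b, which blocks Cdk4 and Cdk6, rose from 7.91 and 8.01 to 62.01, 49.2 and 48.1, Ccnd2 rose by 1.58 ± 0.31 and the p53 target Cdkn1a by 1.48 ± 0.14. The inhibitors Cdkn2c and Cdkn1b fell by 1.66 and 1.28.

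**Figure D3:**
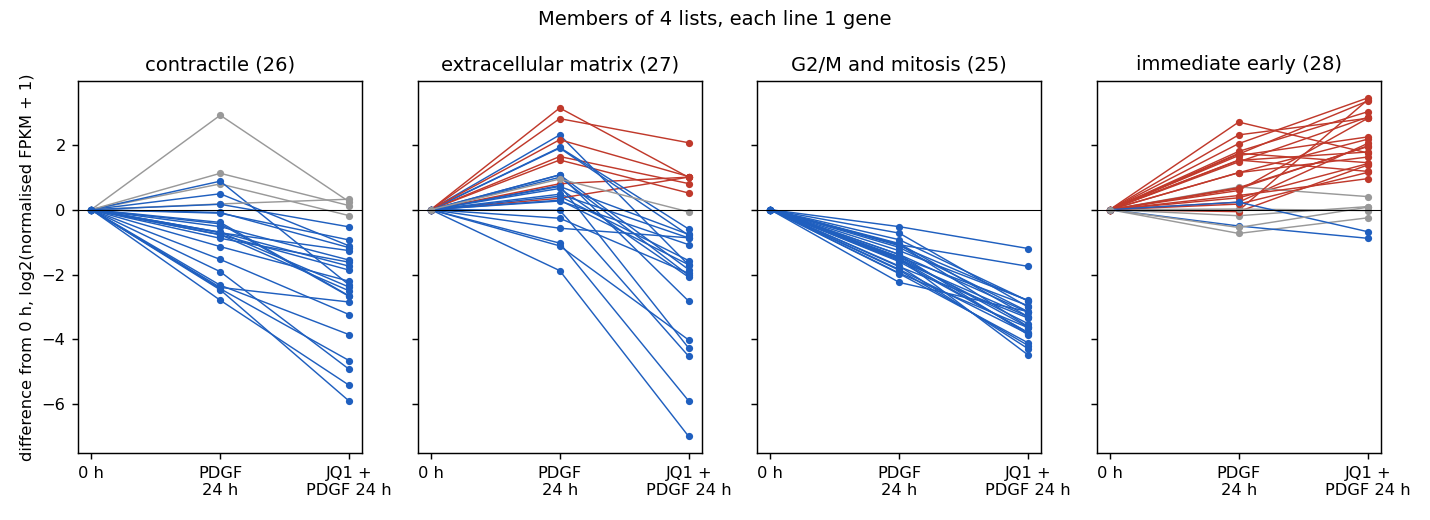
Difference from 0 h, log2(normalised FPKM + 1), with PDGF alone and with JQ1 and PDGF for the tested members of 4 lists, each line 1 gene. Blue lines ended below the start and red lines above it at a limma adjusted p under 0.05, and grey lines did not pass. All 25 mitosis genes and 22 of 26 contractile genes end below, and 21 of 28 immediate early genes end above.

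Immediate early genes, the first to answer growth factors, stood above the start at 24 h. Of 28 tested, 21 rose and 2 fell, with a median of 1.68, beside 17.6% and 23.4% of all tested genes. PDGF alone had raised 16 and lowered 3 at that time, beside 37.7% and 4.85% of all tested genes. Against PDGF alone 18 were called higher and 3 lower, beside 4.61% and 48.5%. Egr1, a zinc finger factor, measured 14.6 and 14.8 at 0 h, 52.8, 42.6 and 57.05 with PDGF and 184, 139.8 and 156 with JQ1. The groups did not overlap and rose in that order, to 3.35 ± 0.16. Dusp6, a phosphatase that switches off ERK, measured 7.82 and 7.04 at 0 h, 29.1, 30.7 and 42.2 with PDGF and 104, 79.4 and 89.8 with JQ1. Ier3 rose by 3.02 ± 0.15, the phosphatase Dusp5 by 2.85 ± 0.24 and the AP-1 subunits Jun and Junb by 2.82 ± 0.14 and 2.24 ± 0.13. Fosl1, another AP-1 subunit, went the other way against PDGF alone, with 5.36 and 1.96 at 0 h, 28.9, 22.1 and 31.4 with PDGF and 15.1, 11.9 and 13.8 with JQ1, and held 1.75 ± 0.25 above the start. Myc, at 50.05 and 63.8 at 0 h and 69.3, 53.2 and 57.4 with JQ1, overlapped its starting range, at 0.07 ± 0.15 (limma adjusted p = 0.736), while PDGF alone gave 40.8, 39.4 and 34.9. The 2 that fell were Dusp1 at -0.88 ± 0.15 and the ERK pathway inhibitor Spry4 at -0.68 ± 0.23. The Spry4 call was lost without unstimulated library 0 or JQ1 library 1.

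Inflammatory genes were above the start in 8 of 18 cases and below it in 3, and PDGF alone had raised 14 and lowered 1. The shares over all tested genes were 17.6% above and 23.4% below, and with PDGF alone 37.7% and 4.85% on the normalised scale. Besides Ccl2, Cxcl10 rose to 5.42, 8.63 and 7.77 from 0.299 and 0.409, and Nfkbia, the inhibitor of NF-kappaB, rose by 1.62 ± 0.19. Ptgs2, the inducible cyclooxygenase, measured 3.46 and 2.29 at 0 h, 13.6, 14.2 and 21.1 with PDGF and 11.3, 7.99 and 10.7 with JQ1. Lif, a cytokine of the interleukin-6 family, measured 0.329 and 1.55 at 0 h, 5.52, 7.10 and 8.62 with PDGF and 4.53, 2.14 and 5.72 with JQ1, and its call at 1.41 ± 0.33 was lost without unstimulated library 0 (limma adjusted p = 0.0788). The interferon-response list had 6 of 18 below the start and 2 above, where 23.4% of all tested genes were below and 17.6% above. Its median was -0.08 against -0.07 over all tested genes. Ddx58 was at -1.72 ± 0.21 and Oasl at 1.03 ± 0.29, and the Oasl call was lost without either unstimulated library. Rsad2 was listed at 0 in both unnormalised unstimulated libraries and measured 2.76, 1.56 and 2.18 with JQ1.

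Growth factor genes and receptors were mostly lower. Of 39 tested, 23 fell and 5 rose, with a median of -0.96. Among all tested genes 23.4% fell and 17.6% rose, shares that also stand beside the receptor and channel lists below. Tgfb3 and Tgfb2 fell by 4.71 and 3.24, while Tgfb1, of the same ligand family, rose by 2.25 ± 0.15, from 67.7 and 73.2 at 0 h to 319, 268 and 301 with PDGF and 387, 323 and 311 with JQ1. Pdgfra, the other PDGF receptor, fell by 2.17 and was 1.26 above the start with PDGF alone. Bmper and Grem1, which bind BMP ligands, fell by 3.85 and 3.36. The epidermal growth factor ligand Areg rose from 0.292 and 0.155 to 7.50, 4.99 and 5.79, and the receptor Egfr, at 0.45 ± 0.25, met the rule for a return on the normalised scale and passed the test upward on the median-centred scale, at 0.56, and without JQ1 library 1. Among 17 vasoactive receptors and Rgs genes, 9 fell and 2 rose. Agtr1a, the angiotensin II receptor, fell by 2.37, the natriuretic peptide receptor Npr2 by 2.55 and the adrenergic receptor Adra1d by 2.63. Rgs2 rose by 2.94 ± 0.18, with 201, 229 and 275 under PDGF alone and 270, 225 and 229.6 with JQ1. Of 19 ion channel and calcium genes, 8 fell and 2 rose. Casq2, which stores calcium in the sarcoplasmic reticulum, measured 105 and 116 at 0 h, 22.5, 20.7 and 22.6 with PDGF and 5.93, 4.92 and 4.50 with JQ1. Pln, phospholamban, was listed at 0 in 2 of the 3 unnormalised JQ1 libraries after 14.01 and 10.99 at 0 h. The channel subunit Cacna1c fell by 1.84 and caveolin Cav1 by 1.88, and Orai1, a store-operated channel, rose by 1.43 ± 0.21.

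**Figure D4:**
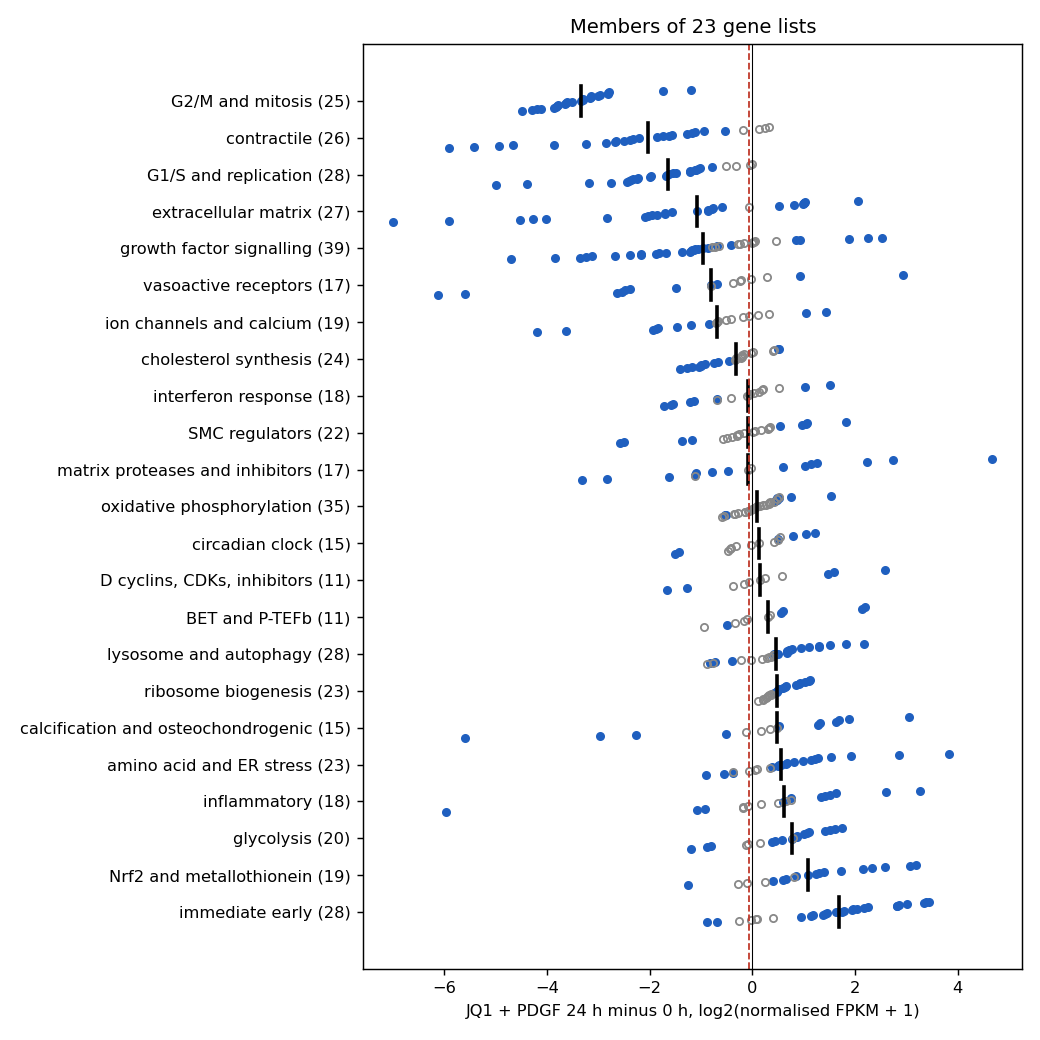
Difference of JQ1 with PDGF from 0 h, log2(normalised FPKM + 1), for tested members of 23 gene lists, with the number tested in brackets. Filled points passed a limma adjusted p under 0.05 and open points did not, black bars are list medians and the dashed line is the median of all tested genes, -0.07. The mitosis list lies lowest with a median of -3.34 and the immediate early list highest with 1.68.

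The antioxidant and metallothionein list rose in 14 of 19 members and fell in 1, with a median of 1.09. Among all tested genes 17.6% rose and 23.4% fell. Srxn1, which repairs oxidised peroxiredoxins, went from 10.6 and 7.49 at 0 h to 93.99, 70.3 and 83.7 with JQ1, with 16.8, 13.9 and 16.5 under PDGF alone. Gclc, the rate-limiting enzyme of glutathione synthesis, went from 21.96 and 24.8 to 123, 94.4 and 107, with 26.7, 19.6 and 26.3 under PDGF alone. Hmox1, heme oxygenase, rose by 2.58 ± 0.12. Mt1a and Mt2A, zinc-binding metallothioneins, rose by 3.19 ± 0.40 and 1.40 ± 0.38, and short reads may be shared among such copies. The Mt2A call was lost without unstimulated library 1. The 1 member that fell was Gsta1, a glutathione transferase, by 1.25.

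Genes of amino acid shortage and endoplasmic reticulum stress were above the start in 15 of 23 cases and below it in 3 (1 without unstimulated library 1). Among all tested genes 17.6% were above and 23.4% below, shares that also stand beside the ribosome and lysosome lists below. Ddit3, the stress factor CHOP, measured 43.05 and 39.4 at 0 h, 89.5, 90.97 and 84.4 with PDGF and 671, 553 and 570.5 with JQ1. Chac1, which degrades glutathione, measured 11.3 and 8.66 at 0 h, 19.9, 17.4 and 18.7 with PDGF and 85.9, 69.6 and 79.9 with JQ1. Xbp1, a factor of the unfolded protein response, fell by 0.91, and the chaperone Hsp90b1, at -0.07 ± 0.12, met the rule for a return. Of 23 ribosome biogenesis genes 14 rose and none fell, also at an unadjusted limma p under 0.05 (0 genes), with a median of 0.47. Without unstimulated library 0, 7 rose. The largest were Nop56 at 1.11 ± 0.14 and Rrp9 at 1.11 ± 0.16. Of 28 lysosome and autophagy genes 16 rose and 3 fell. Grn, progranulin, rose by 2.17 ± 0.14 and the lysosomal channel Mcoln1 by 1.81 ± 0.18.

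Glycolytic genes were above the start in 13 of 20 cases and below it in 3, and PDGF alone had raised 16. Without unstimulated library 0, 8 rose, and without library 1, 1 fell. Eno1, enolase, measured 175 and 385 at 0 h, 1175, 1015 and 1157 with PDGF and 618, 531 and 529.8 with JQ1, and Hk2, a hexokinase, 11.6 and 12.2 at 0 h, 21.1, 23.7 and 31.2 with PDGF and 26.1, 18.04 and 19.7 with JQ1. Without unstimulated library 0 the Eno1 difference was 0.54 and not called, and without unstimulated library 1 it was 1.67. Phosphofructokinase genes parted, with Pfkp above the start at 1.61 ± 0.19, Pfkl back at it at -0.13 ± 0.13 and Pfkm below it at -0.88 ± 0.16. The lactate and monocarboxylate carrier Slc16a1 rose by 1.75 ± 0.17. In the cholesterol synthesis list 10 of 24 fell and 2 rose (4 on the median-centred scale, 0 without unstimulated library 0 and 1 without JQ1 library 0 or 2). PDGF alone had raised 14 of the 24. Hmgcs1, the synthase before the mevalonate step, fell by 1.28 and Pmvk, phosphomevalonate kinase, by 1.41. On the normalised scale 17.6% of all tested genes rose and 23.4% fell. PDGF alone raised 37.7% of them, with a median of 0.41, which was 0 on the median-centred scale. Of 35 oxidative phosphorylation subunits, 26 did not pass the test, 7 rose and 2 fell, with a median of 0.09, where PDGF alone had raised 28 (median 0.57). With median-centred values 13 rose and 4 fell, without unstimulated library 0, 3 rose, without unstimulated library 1 none fell, and without JQ1 library 0, 4 fell. In the circadian clock list 4 of 15 rose and 2 fell (5 without JQ1 library 0), with a median of 0.13, beside 17.6% and 23.4% over all tested genes. The 2 that fell were Per2 and Per3 at -1.44 ± 0.21 and -1.51 ± 0.31.

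Hexim1 was higher in all 3 JQ1 libraries, with 39.8 and 36.6 at 0 h, 65.5, 54.99 and 56.9 with PDGF alone and 189, 164 and 162 with JQ1, a rise of 2.14 ± 0.15 (limma adjusted p = 1.4e-08). Of all tested genes, 17.6% were above the start and 23.4% below. In the list of BET proteins and P-TEFb partners, 4 of 11 tested genes were above the start and 1 was below. Without unstimulated library 0, 2 were above, and the 1 below, Brd3 at -0.49 ± 0.19, lost its call without either unstimulated library, JQ1 library 1 or 2, or PDGF library 1 or 2. Brd2, a BET protein, rose by 2.20 ± 0.27 from a low listed level of 0.909 and 0.513. Cdk9, the P-TEFb kinase, rose by 0.55 ± 0.14, a call lost without unstimulated library 0.

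The cells carried smooth muscle markers at 0 h. The 8 markers of that list summed to 8805 and 10660 normalised FPKM in the 2 unstimulated libraries (lowest and highest), to between 1719 and 1955 with PDGF and to between 328 and 482 with JQ1, and 7 of the 8 fell. Acta2 and Tagln, whose values stand above, made up most of the sums at 0 h, and Myh11 was low there. Of 12 endothelial markers 4 were tested, and the sum of the list was 50.04 to 53.4 at 0 h and 27.4 to 36.9 with JQ1. Eng fell by 1.06 and Flt1 rose by 0.99 ± 0.18, while Cdh5, Kdr, Emcn and Cldn5 were listed at 0 in all 5 libraries. Of 12 leukocyte markers 2 were tested, with sums of 14.7 to 19.3 at 0 h and 8.96 to 20.3 with JQ1. Cd14 fell by 1.59 and Cd68, a lysosomal glycoprotein, rose from 0.733 and 1.12 to 12.95, 4.16 and 6.19, and Ptprc, Itgam, Lyz2 and 5 more were listed at 0 in all 5. Of 11 adventitial fibroblast markers 9 had a row and 5 were tested, with sums of 107 to 127 at 0 h and 36.7 to 54.8 with JQ1. Pdgfra, Thy1, Mfap5 and Scara5 fell, by 2.17, 1.29, 1.59 and 0.99, and Dpt, Cd34 and Ly6c were listed at 0 in all 5. Mfap5 lost its call without unstimulated library 1 and Scara5 without either unstimulated library. In the adipocyte list 1 gene was tested, Pparg at 0.25 ± 0.40, and it did not pass. The part of such cells in the falls of matrix genes was not tested.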

How the data were processed

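PolyA RNA from rat aortic smooth muscle cells was sequenced in 14 libraries with single reads of 40 bases, per the labels' protocols. The authors deposited FPKM values per gene in an unnormalised and a normalised table. HISAT, Cufflinks 2.0.0 and build rn6 stand in the submitters' processing notes, and the sources used here do not give the normalisation method. Synthetic spike-in RNA was added by cell number, per the labels' protocols, and its 92 rows were left out of the tests. Genes that reached a deposited normalised FPKM of 1 in 2 or more libraries entered limma 3.58.1 (R 4.3.3) on log2(FPKM + 1), with 5 groups, a mean trend and Benjamini-Hochberg adjustment over 10133 genes, which leaves 9 residual degrees of freedom. The classing was run on simulated data, with shifts of 2 (log2) in genes well above the floor. Raised genes here had a median PDGF difference of 1.3, so that run does not give the error rate of these classes. The median-centred scale is the unnormalised FPKM divided by median-of-ratios size factors. Members and lists were chosen with earlier results of these data known. Genes named are the 15 highest and 15 lowest called with separate ranges, the 10 largest per class, up to 4 per list and fixed genes, and other list members were picked after their values were seen. Alternatives were the second scale, other pseudocounts, filters and bands, no trend, fewer groups, each library of the 0 h and 24 h groups left out, and a setting added after seeing the data.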

Additional observations from a re-analysis of the deposited data

How the results depend on the processing

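No paired analysis was possible because the columns carry digits that no label ties to a title letter, and the letters of the compared groups (A and B against E, F and H) share none. Of 214 genes recomputed, 183 had the same call against 0 h under every alternative and none reversed. On the median-centred scale PDGF raised 454 genes by at least 1, of which 36 passed below, 121 returned and 259 held above, and lowered 489, of which 5 passed above, 21 returned and 450 held below. There, 1464 genes whose PDGF interval lay inside the band were higher with JQ1. Taking every called PDGF difference in place of those of at least 1, PDGF raised 3823 genes, of which 490 passed below, 1364 returned and 1367 held, and lowered 491, of which 7 passed above, 18 returned and 444 held below, 310 of them further. With a band of 0.58, 94 raised and 3 lowered genes returned, and 388 lower and 69 higher genes had a PDGF interval inside the band. With each of the 8 libraries of the 0 h and 24 h groups left out in turn (those at 2 h were not), genes higher than at 0 h ranged from 1073 to 1764, raised genes that passed below from 58 to 127, lowered genes that returned from 3 to 7 and that passed above from 0 to 1, and genes with a PDGF interval inside the band from 736 to 1451 lower and 148 to 226 higher. Without PDGF library 0 at 24 h and PDGF library 1 at 2 h, a setting chosen after seeing the data, no count of calls or classes moved by over 1.5 times. The depth of the libraries is unknown, and values near 0 are limited by it.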
